A study of Mus musculus with 6 samples.

Results

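Expression of 10 genes of de novo lipogenesis, the making of fatty acids from acetyl units, was followed in cultured mouse hepatocytes with and without the succinate receptor gene *Sucnr1*. The members were the rows of the raw count table for *Srebf1* and for the fatty acid synthesis genes *Fasn*, *Acaca*, *Acacb*, *Acly*, *Scd1*, *Elovl6*, *Me1*, *Thrsp* and *Pnpla3*, 10 of 25184 genes in the table. All 10 passed the filter on low counts that left 15105 genes for testing. The study isolated primary hepatocytes from the left lateral lobe of mice kept on chow. The cells were kept overnight on collagen in medium with added glucose, glutamine, pyruvate and fetal bovine serum, and sequenced as stranded mRNA libraries. Whether the mice were fed or fasted at isolation is not stated for these cells. The controls were 3 libraries of *Sucnr1* fl/fl hepatocytes (replicates 1, 2 and 3), Cre-negative and with *Sucnr1* exon 2 floxed on both alleles. The other 3 libraries were Hep-*Sucnr1* KO (replicates 3, 4 and 5), with the same floxed alleles and 1 copy of *Alb-Cre*, in which the *Alb* promoter drives Cre in hepatocytes. Whether other liver cell types keep the gene was not examined here. Control replicate 1 and KO replicate 3 were extracted on day 1 and the other 4 libraries on day 2. The age and sex of these mice are not given in the labels. The labels number the libraries without naming the animal of each, so the p values measure the spread between these libraries.

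Hepatocytes turn surplus carbohydrate into fat. *Acly* splits citrate into cytosolic acetyl-CoA, the acetyl-CoA carboxylases encoded by *Acaca* and *Acacb* make malonyl-CoA, and fatty acid synthase, encoded by *Fasn*, builds palmitate from it with NADPH, part of which malic enzyme (*Me1*) supplies. *Elovl6* lengthens palmitate and *Scd1* puts in the first double bond. *Srebf1* encodes SREBP1, a transcription factor that insulin induces in liver and that raises the transcription of most of these genes. *Thrsp* encodes Spot 14, a small nuclear and cytosolic protein induced by thyroid hormone and carbohydrate, and *Pnpla3* encodes a lipid droplet protein that is itself a target of SREBP1.

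The genes lie at separate loci of GRCm38. *Srebf1* (ENSMUSG00000020538) is at chr11:60199089-60222581 on the minus strand, *Fasn* (ENSMUSG00000025153) at chr11:120805846-120824547 on the minus strand and *Acly* (ENSMUSG00000020917) at chr11:100476353-100528000 on the minus strand. *Acaca* shares chromosome 11 with them. *Acacb* lies on chromosome 5, *Scd1* on chromosome 19, *Elovl6* on chromosome 3, *Me1* on chromosome 9, *Thrsp* on chromosome 7 and *Pnpla3* on chromosome 15. RefSeq (GRCm38.p6) promoter windows were found for 9 of the 10 members, 12 windows in all, and the 250 bases before each start were searched on both strands. The CCAAT box, the motif of NF-Y, a factor known to act beside SREBP1 on promoters, was found in 7 of the 12 windows, which belong to *Acacb*, *Fasn*, *Me1*, *Pnpla3*, *Srebf1* and *Thrsp*, and in 33.8% of all 32851 windows. The GC box GGGCGG of Sp1 was found in 5 member windows and in 32.7% of all. The E box CACGTG, at which USF and ChREBP can bind, and the sterol element written as TCACNCCAC were in 0 of the 12 windows and in 6.02% and 1.05% of all windows, respectively. Only these strings were searched, so sites with other letters would be missed and their absence cannot be read from these counts. The 120 bases before the start are shown for *Srebf1*, the regulator, at the most downstream of its 3 annotated starts, for *Fasn*, which has the most CCAAT boxes, and for *Acly*, which has none. Capitals mark the box on either strand, read from the strand of the gene, and the last base of each line is the base before the start.
*Srebf1*, chr11:60210472-60210591, minus strand: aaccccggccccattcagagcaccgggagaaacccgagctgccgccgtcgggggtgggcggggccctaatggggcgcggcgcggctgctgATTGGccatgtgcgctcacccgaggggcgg
*Fasn*, chr11:120824548-120824667, minus strand: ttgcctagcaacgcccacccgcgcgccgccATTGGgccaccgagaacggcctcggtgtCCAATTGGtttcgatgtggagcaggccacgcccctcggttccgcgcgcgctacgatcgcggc
*Acly*, chr11:100528001-100528120, minus strand: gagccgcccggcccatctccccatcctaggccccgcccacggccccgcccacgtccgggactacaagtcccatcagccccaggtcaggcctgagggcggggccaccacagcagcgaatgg
The *Fasn* window holds 3 boxes, of which 1 begins 90 bases before the start and the other two, at 62 and 59 bases, overlap as a palindrome. In *Thrsp* the boxes begin 79 and 52 bases before the start, and in *Srebf1* the box begins 30 bases before it. These matches describe the letters only, and no binding was measured here.

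The libraries held between 30504248 and 38770694 counts. *Sucnr1* was at 6.71, 3.55 and 3.40 CPM (counts relative to the library total, scaled with edgeR's TMM factors) in control replicates 1, 2 and 3 and at 2.66, 0.827 and 0.152 CPM in KO replicates 3, 4 and 5. Each KO library was below each control, and KO replicate 3 kept the most. These are counts over the whole gene and not over exon 2 alone. The 10 hepatocyte markers, *Alb* and *Ttr* among them, summed to between 71040 and 107406 CPM. Of 9 adipocyte markers, 8 were in the table, and they summed to between 825 and 2652 CPM, nearly all of it *Car3* (809 to 2634 CPM), which hepatocytes also express. The sum was 1909 CPM in control replicate 1 and highest in KO replicate 4. *Fabp4*, *Lipe* and *Cd36* were at 2.83 to 8.14 CPM, *Cfd* had at most 10 counts in any library, and the defining markers *Adipoq*, *Plin1* and *Retn* at most 4. The part of these markers in the results was not tested. In bulk libraries, fewer cells of a type and less RNA per cell cannot be told apart.

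*Scd1*, the stearoyl-CoA desaturase, was by far the most abundant member. Per kilobase of merged exons its mean level over the 6 libraries was 1559 CPM per kb (range 1089 to 1937), and it held at least 77.9% of the summed CPM of the 10 genes in each library. *Acly* (75.4 CPM per kb), *Thrsp* (64.4), *Me1* (55.3) and *Fasn* (39.7) came next. The ranges over libraries of these 4 genes overlapped, from 20.6 CPM per kb at the lowest for *Fasn* to 138 CPM per kb at the highest for *Acly*. *Srebf1* (20.1 CPM per kb), *Elovl6* (16.9), *Acacb* (12.5) and *Acaca* (6.02) were lower, with ranges that overlapped between neighbours in this order. The merged exons span 17074 bases for *Acaca* and 9632 bases for *Acacb*. *Pnpla3* was the lowest of the 10, at 0.714 CPM per kb and with 15 to 68 counts per library. The exons of *Pnpla3* overlap those of *Gm49513* on the same strand, and those of *Srebf1* overlap the microRNA gene *Mir6922*. Shared reads can move the counts of these 2 members. *Srebf1*, *Elovl6* and *Me1* also overlap genes on the opposite strand, and the counting used strand. *Scd1* has paralogs, of which *Scd2* was at 2.23 to 4.12 CPM, and reads shared between them were not measured.

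**Figure D1:**
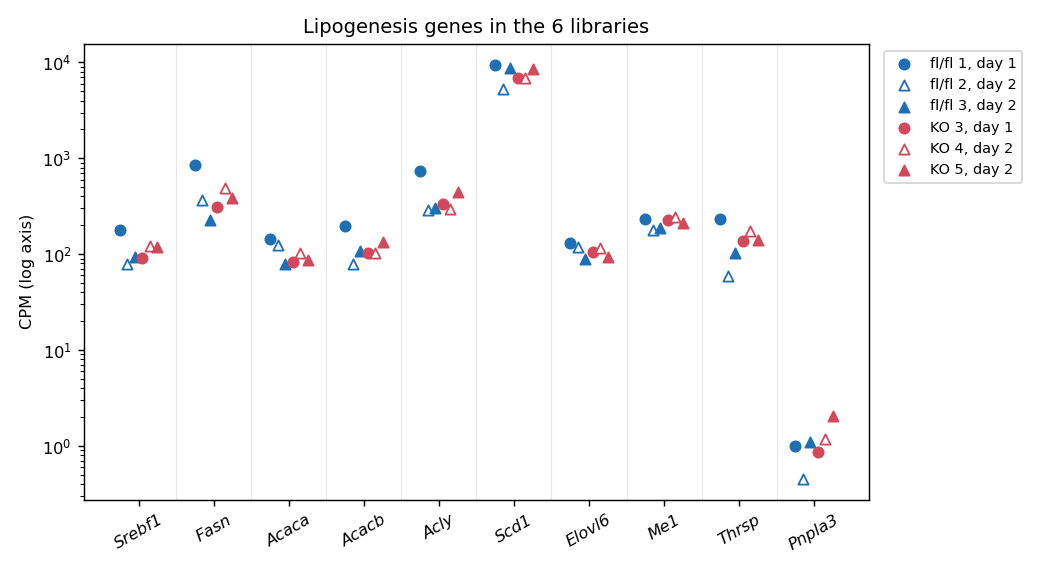
Level of each lipogenesis gene in the 6 libraries, in CPM on a log axis. Blue marks *Sucnr1* fl/fl and red Hep-*Sucnr1* KO, circles extraction day 1 and triangles day 2. *Scd1* sits between 5326 and 9474 CPM and *Pnpla3* near 1 CPM, and for 8 of the 10 genes the blue circle, control replicate 1, is the highest point.

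*Srebf1* was at 179.0, 78.3 and 92.8 CPM in control replicates 1, 2 and 3 and at 91.4, 120.4 and 118 CPM in KO replicates 3, 4 and 5. The first control was the highest and the second the lowest of the 6, and all KO libraries lay between them. *Fasn*, the synthase, was at 844, 367 and 225 CPM in the controls and at 308, 485 and 381 CPM in the KO libraries. The highest control thus had 3.75 times the level of the lowest, against 1.58 times among KO libraries. *Acly* was also highest in the first control, with 729, 288 and 305 CPM in the controls and 332, 294 and 440.1 CPM in KO hepatocytes.

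The carboxylases differed from each other in the second control. *Acaca* was at 143, 124 and 79.7 CPM in control replicates 1, 2 and 3, and *Acacb* at 198, 79.4 and 108 CPM. In KO replicates 3, 4 and 5 *Acaca* was at 81.8, 103 and 86.1 CPM and *Acacb* at 102, 102 and 134 CPM. Control replicate 1 was the highest library for both, while the lowest was control replicate 3 for *Acaca* and control replicate 2 for *Acacb*.

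*Scd1* was at 9474, 5326 and 8751 CPM in the controls and at 6858, 6911 and 8453 CPM in the KO libraries. *Elovl6*, the elongase of palmitate, was at 129.7, 118 and 89.3 CPM in the controls and at 106, 117 and 92.6 CPM in KO hepatocytes. *Me1* had the smallest ratio of highest to lowest library of the 10 (1.37), with 233, 176 and 189 CPM in the controls and 227, 242 and 209 CPM in the KO libraries. The groups overlapped for all 3 genes, and the highest library was control replicate 1 for *Scd1* and *Elovl6* and KO replicate 4 for *Me1*.

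*Thrsp* was at 231, 59.5 and 104 CPM in control replicates 1, 2 and 3, a span of 3.87 times. In KO replicates 3, 4 and 5 it was at 137, 175 and 139.9 CPM, a span of 1.28 times. *Pnpla3* was at 0.988, 0.451 and 1.09 CPM in the controls and at 0.855, 1.18 and 2.06 CPM in KO hepatocytes, with KO replicate 5 the highest.

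For 8 of the 10 genes, all but *Me1* and *Pnpla3*, all KO libraries lay within the range of the controls, as did those of 17.4% of the genes tested. The SD of the CPM was larger among the controls for 9 of the 10 genes, all but *Pnpla3*, and for 49.8% of the genes tested. For *Srebf1* the control level was 117 ± 54.4 CPM and the KO level 109.9 ± 16.1 CPM, and for *Fasn* 479 ± 324 and 391 ± 89.0 CPM (SD, n = 3 each). For *Thrsp* it was 131 ± 88.8 and 151 ± 21.0 CPM and for *Scd1* 7851 ± 2216 and 7407 ± 906 CPM (SD, n = 3 each).

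The study sequenced these hepatocytes to ask whether loss of *Sucnr1* changes genes of liver zonation. The same comparison was read here for the lipogenesis genes, and no member passed the threshold. In edgeR's quasi-likelihood test with extraction day as covariate and Benjamini-Hochberg adjustment over all genes tested (false discovery rate, FDR, threshold 0.05), 0 of the 10 genes were called, as were 0% of the 15105 genes. The deleted gene *Sucnr1* was not called in this test either, at −2.23 on the log2 scale (standard error 0.54, FDR 0.998). DESeq2's Wald test did call *Sucnr1* (adjusted p 0.0328). At an unadjusted p below 0.05 the count was 0 of 10, against 3.73% of all genes. Single libraries moved these values: in the same edgeR test *Thrsp*, at 0.39 on the log2 scale with all libraries, was at 0.95 without control replicate 1 (unadjusted p 0.0168) and at 0.0017 without control replicate 2, and *Acaca*, at −0.34, was at −0.57 without control replicate 3 (unadjusted p 0.0175). DESeq2's Wald test called 0 of 10 members and 0.0463% of all genes, and gave no adjusted p for *Pnpla3*. The groups did not overlap for 0 of the 10 genes and for 10.6% of all genes. The log2 fold change of KO against control was 0.0038 for *Srebf1* (standard error 0.29, 95% interval −0.68 to 0.69), and that of *Fasn* was −0.10 (0.43, −1.13 to 0.94). The intervals were narrowest for *Me1*, at 0.19 (0.13, −0.13 to 0.51), and *Elovl6*, at −0.09 (0.16, −0.47 to 0.30). *Acaca* was at −0.34 (0.22, −0.86 to 0.19), *Acly* at −0.16 (0.32, −0.92 to 0.60) and *Acacb* at −0.09 (0.29, −0.78 to 0.60). *Scd1* was at −0.07 (0.26, −0.68 to 0.54), *Thrsp* at 0.39 (0.39, −0.52 to 1.31) and *Pnpla3* at 0.66 (0.47, −0.47 to 1.78). This fit takes the same genotype difference for both extraction days. Under it, a change of 1 on the log2 scale in either direction lay outside the intervals of all genes but *Fasn*, *Thrsp* and *Pnpla3*. The intervals do not bound the difference within a day, which for *Srebf1* was −0.97 on day 1 and 0.48 on day 2. The FDR was 0.999 for *Srebf1* and 0.998 for each of the other 9. The median of the 10 was −0.08, with 4 positive and 6 negative, and that of all genes tested was 0.0030. Without control replicate 1, which leaves the day 2 libraries to set the genotype difference, the median of the 10 was 0.32, *Fasn* was at 0.55 and *Srebf1* at 0.48, and without KO replicate 3 the median was 0.31.

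**Figure D2:**
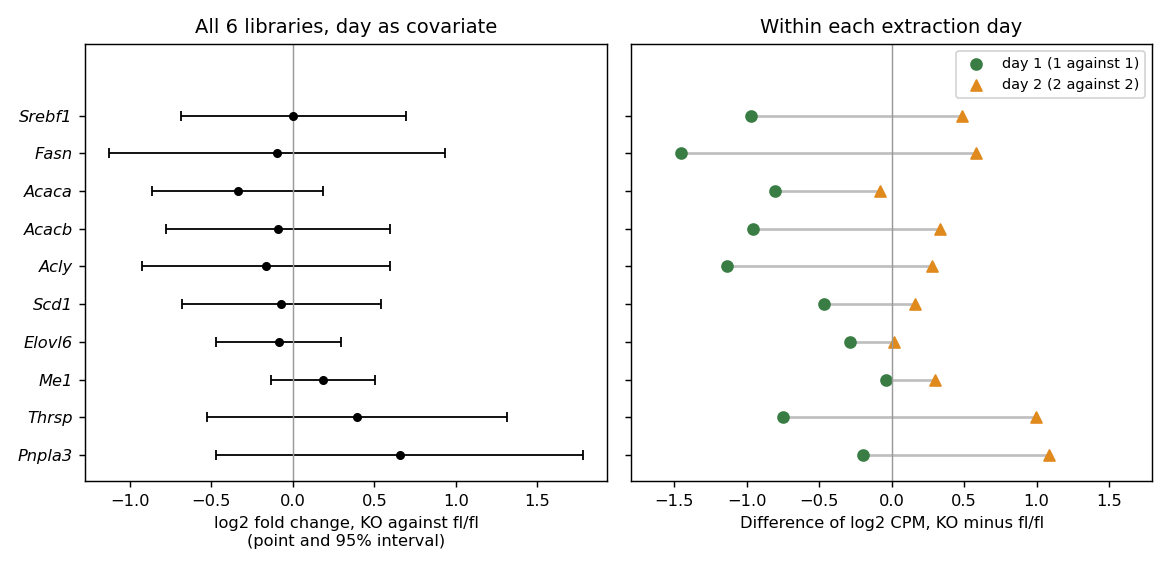
Genotype difference of the lipogenesis genes. Left, log2 fold change of KO against fl/fl over the 6 libraries with extraction day as covariate (point) and its 95% interval (bar). Right, difference of log2 CPM between the genotypes on day 1 (circles, 1 library each, no replicate check) and day 2 (triangles, means of 2 libraries each). The left intervals all include 0, and on the right all 10 circles are below 0 and 9 of 10 triangles above it.

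Each extraction day held both genotypes, which allowed comparisons within a day. The day 1 pair had no replicate check. In it all 10 genes were lower in the KO library than in the control, with a median difference of log2 CPM of −0.78, against 0.01 for all genes tested. *Fasn* was 2.74 times, *Acly* 2.19 times, *Srebf1* 1.96 times, *Acacb* 1.94 times, *Acaca* 1.74 times and *Thrsp* 1.68 times as high in the control. These 6 genes passed a difference of 1.5-fold toward the control, as did 13% of all genes tested. *Me1* was nearly level, at 1.03 times. On day 2, in the means of 2 libraries per genotype, 9 of the 10 genes were higher in KO hepatocytes, with a median difference of 0.32, against 0.0054 for all genes. *Pnpla3* (1.08) and *Thrsp* (0.99) passed 1.5-fold toward the KO, as did 6.35% of all genes. *Fasn* was at 0.58, *Srebf1* at 0.48 and *Acaca*, the exception, at −0.08.

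The interaction of genotype and extraction day was positive for all 10 genes, and for 7610 of all 15105. This sign was not particular to the lipogenesis genes. It was positive for 13 of 14 other elongases and desaturases, 9 of 10 hepatocyte markers and all 11 Kupffer cell markers. In the other related lists described below it was positive for 10 of 16 genes around SREBP1 control, 8 of 12 supply genes and 14 of 24 triglyceride genes. No member reached an FDR of 0.05 (0 of 10, and 0% of all genes, edgeR's quasi-likelihood test), and the FDR was 1.00 for each. Without adjustment, 5 of the 10 genes had a p below 0.05, *Srebf1* (0.00188), *Fasn* (0.00674), *Acly* (0.0128), *Thrsp* (0.0147) and *Acacb* (0.0156), as did 3.69% of all genes. The interaction was 1.45 on the log2 scale for *Srebf1* (standard error 0.27), 2.00 for *Fasn* (0.49) and 1.70 for *Thrsp* (0.50). DESeq2's Wald test called 0 of the 10 members and 0.0265% of all genes, and its adjusted p was lowest for *Fasn* (0.0903) and *Srebf1* (0.113). With 1 library per genotype on day 1, the interaction rests on control replicate 1 and KO replicate 3 alone for that day.

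Between the extraction days, 9 of the 10 genes had a negative log2 fold change of day 2 against day 1, with a median of −0.29, against 0.02 for all genes tested. *Thrsp* was at −0.73 (standard error 0.40), *Acly* at −0.64 (0.33), *Fasn* at −0.63 (0.45), *Acacb* at −0.48 (0.30) and *Srebf1* at −0.40 (0.30). In edgeR's quasi-likelihood test, 0 of the 10 passed an FDR of 0.05, as did 0% of all genes, and the lowest FDR among them was 0.786, for *Acly*. At an unadjusted p below 0.05 the count was 0 of 10, against 7.49% of all genes. DESeq2 called 0 of the 10 and 1.49% of all genes. Without control replicate 1 the median of the 10 turned to 0.20, and without KO replicate 3 it was −0.81.

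The spread among libraries was then described without regard to group, as how far log2 CPM stood from its mean over the 6 libraries (the deviation). Control replicate 1 was the highest library for 8 of the 10 genes, all but *Me1* and *Pnpla3*, and for 18.2% of all genes tested. Control replicate 2 was the lowest for 7 genes and control replicate 3 for the other 3, *Fasn*, *Acaca* and *Elovl6*. The median deviation of the 10 genes was 0.61, −0.43 and −0.25 in control replicates 1, 2 and 3 and −0.18, 0.13 and 0.11 in KO replicates 3, 4 and 5. *Srebf1* kept closest to this median profile, at a mean absolute difference of 0.044 log2 units over the 6 libraries, and *Pnpla3* (0.44) and *Fasn* (0.31) were farthest. Among the 7057 other genes with a mean of at least 10 CPM, the nearest to the profile were *Raph1*, a cytoskeletal adaptor (0.10), *Ces2g*, a carboxylesterase (0.12), the gene ENSMUSG00000118516 (0.12), *Elmsan1* (0.12) and *Slc30a10*, a metal transporter (0.12). The median over the 7057 genes was 0.31 and over the 10 members 0.22, and the members themselves define the profile.

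**Figure D3:**
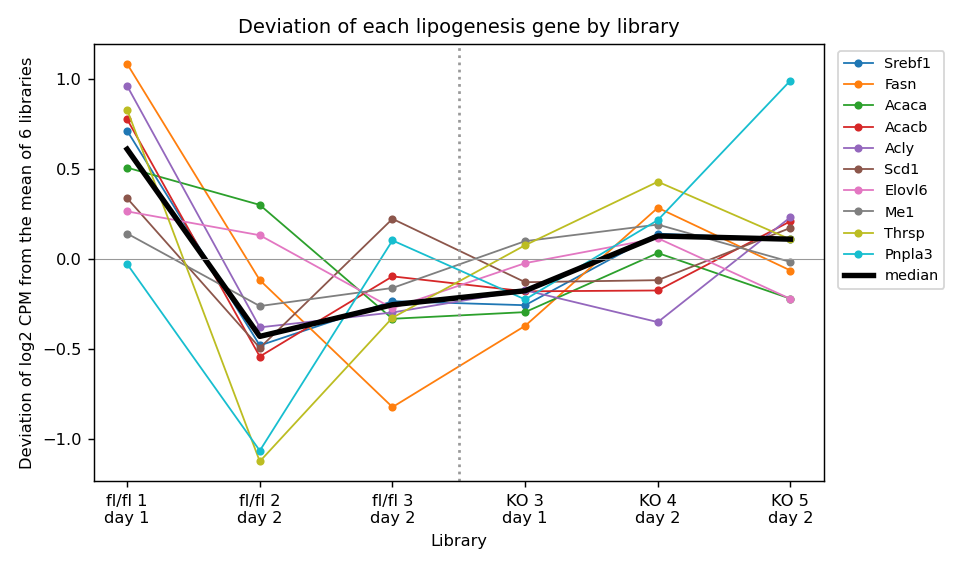
Deviation (log2 CPM minus the mean of 6 libraries) of each lipogenesis gene (thin lines) and the median of the 10 genes (thick line). Control libraries stand left of the dotted line, KO libraries right of it, and the lines join the libraries only to show a gene's profile. The median is 0.61 in control replicate 1 and −0.43 in control replicate 2.

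Markers of other liver cells also differed between these libraries. The 10 sinusoidal endothelial markers summed to 111 CPM in control replicate 1 and to between 41.3 and 72.9 CPM in the other 5 libraries, and 9 of the 10 were highest in control replicate 1. The stellate cell markers summed to 36.9 CPM there and to between 8.95 and 16.2 CPM elsewhere, and all 6 of the 10 that passed the filter were highest there, while *Hand2* and *Des* were near 0. The 11 Kupffer cell markers did not follow this order: they summed to 81.3, 56.5 and 179 CPM in control replicates 1, 2 and 3 and to 37.4, 145 and 125 CPM in KO replicates 3, 4 and 5. Cholangiocyte markers summed to 479, 362 and 531 CPM in control replicates 1, 2 and 3 and to 663, 462 and 445 CPM in KO replicates 3, 4 and 5. Of the 7 that passed the filter, 0 were highest in control replicate 1. The part of all these markers, and of the cells they mark, in the levels of the lipogenesis genes was not tested. The library indexes of control replicates 1 and 2 belong to another number series than those of the other 4 libraries, and these 2 libraries were the highest and the lowest for *Srebf1*, *Acacb*, *Acly*, *Scd1* and *Thrsp*.

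The wider pathway was read from lists of related genes. The first list held 16 genes around SREBP1 control, among them other transcription factors such as *Srebf2*, *Mlxipl* and *Usf1*. Of these 16 genes 9 were higher and 7 lower in KO, the median log2 fold change was 0.0082, and 0 passed the FDR threshold. The largest values were 0.17 (standard error 0.15) for *Insig2*, which holds the SREBP escort Scap in the endoplasmic reticulum, and −0.44 (0.24) for *Ppargc1b*, a coactivator of SREBP1. *Insig1*, itself a target of SREBP, was highest in control replicate 1 too, with 259, 121 and 112 CPM in the controls and 177, 154 and 162 CPM in the KO libraries. *Mlxipl*, which encodes the carbohydrate sensor ChREBP, had a narrow range of 114 to 149 CPM.

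Of 12 genes for the supply of acetyl units and NADPH, 9 were higher and 3 lower, with a median of 0.12. *Acss2*, which makes acetyl-CoA from acetate, was at 168, 67.8 and 133 CPM in the controls and at 174, 204 and 191 CPM in KO hepatocytes. The groups did not overlap for 2 of the 12 genes, *Acss2* among them, and for 10.6% of all genes. The log2 fold change of *Acss2* was 0.67 (0.29, FDR 0.998 in the same edgeR test). Its difference of log2 CPM, KO minus control, was 0.05 on day 1 and 1.05 on day 2, where control replicate 2 was its lowest library. *Aacs*, which activates acetoacetate, had the lowest value, −0.19 (0.18). Of 14 other elongases and desaturases and their partners, 11 were higher and 3 lower, with a median of 0.06, from *Elovl3* at 0.66 (0.37) to *Elovl7* at −0.62 (0.31). Of 24 genes of triglyceride synthesis and lipid droplets, 8 were higher and 16 lower, with a median of −0.06, from *Agpat2*, an acyltransferase, at 0.32 (0.16) to *Plin4*, a droplet coat protein below 1 CPM, at −0.87 (0.43). In each of the 4 lists 0 genes passed an FDR of 0.05 for genotype, extraction day or the interaction in edgeR. For genotype 0 had an unadjusted p below 0.05 in edgeR, against 3.73% of all genes. For extraction day 4 of the 16, 1 of the 12, 1 of the 14 and 4 of the 24 genes did, against 7.49% of all genes. DESeq2 called 1 of the 24 triglyceride genes for extraction day, and 1.49% of all genes.

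Control replicate 1 was the highest library for 6 of the 16 SREBP1 control genes, 3 of the 12 supply genes, 5 of the 14 elongases and desaturases and 8 of the 24 triglyceride genes. Its median deviation was between 0.02 and 0.05 over each of these lists, below the 0.61 of the lipogenesis genes. Single genes of the lists reached the same height there, among them *Lpin1*, a phosphatidate phosphatase, at 214 CPM against 60.5 to 112 CPM in the other libraries, and *Gpam*, the first acyltransferase of glycerolipid synthesis, at 157 CPM against 74.0 to 88.7 CPM. *Lpin1* and *Gpam* are named after their values were seen.

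**Figure D4:**
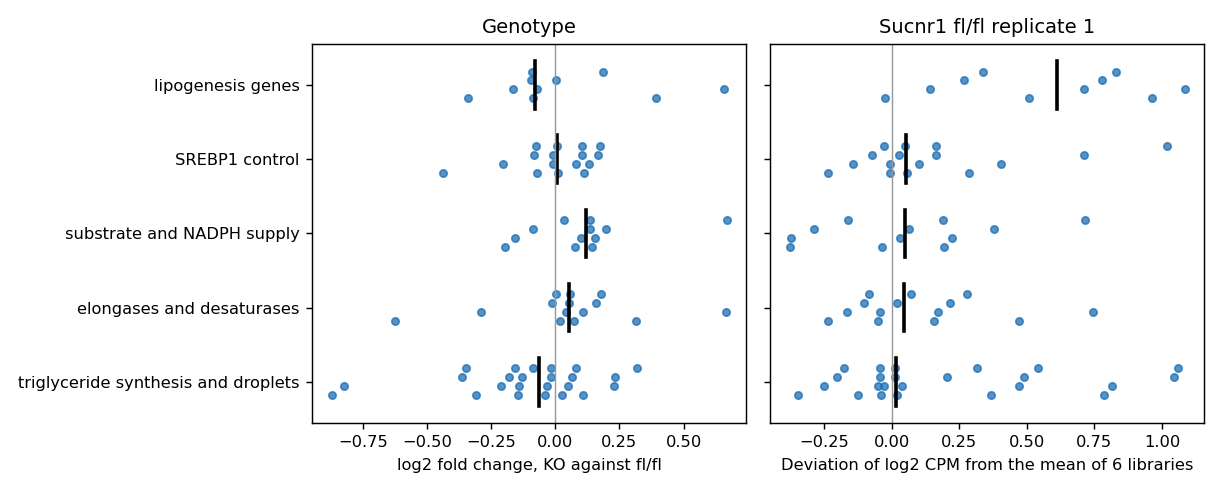
Genes of the lipogenesis set and of 4 related lists, each point 1 gene and each bar the median of its list. Left, log2 fold change of KO against fl/fl, where the medians lie between −0.08 and 0.12. Right, the deviation in control replicate 1 (its log2 CPM minus the mean over libraries), where the median is 0.61 for the lipogenesis genes and at most 0.05 for the other lists.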

How the data were processed

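RNA of 6 libraries was sequenced, and the authors trimmed the reads with Trim Galore 0.6.7, aligned them with STAR 2.7.10a to GRCm38 and counted read pairs per Ensembl gene with featureCounts, using strand. They deposited these raw counts for 25184 genes, without normalization, and the setting for reads that match several genes is not given in the sources used here. Every row carried a gene identifier. Totals per library lay between 30504248 and 38770694. For all members but *Pnpla3*, the spread between libraries (common biological coefficient of variation 0.206), and not counting, set the precision. For *Pnpla3*, at 15 to 68 counts per library, both the spread and counting did.

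The 15105 genes whose DESeq2-normalized counts averaged above 5 were scaled with TMM and fitted in edgeR 4.0.16 (R 4.3.3) with extraction day and genotype, the covariate that the study also used. Genotype, extraction day and their interaction (a second fit) were tested with the quasi-likelihood test and Benjamini-Hochberg adjustment, and standard errors are the log2 fold change divided by the root of F. Deviations used log2 CPM with a prior count of 2. The test was checked on simulated data. Coordinates and merged exon lengths came from GENCODE M21 annotation on GRCm38, and gene symbols were found for 25096 of the identifiers. Promoter sequences came from RefSeq (GRCm38.p6).

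The members and lists were chosen with earlier results of these data known. Genes were named by rule: the 10 members, *Sucnr1*, in each list the gene with the largest log2 fold change in each direction and any gene past the threshold, and the 5 genes nearest to the members' profile. Other genes named (*Insig1*, *Mlxipl*, *Lpin1*, *Gpam*, *Scd2*) were chosen after their values were seen. Alternatives were DESeq2 1.42.0, other scalings and filters, other covariates, a fit to day 2 alone and fits that each left out 1 library.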

Additional observations from a re-analysis of the deposited data

How the results depend on the processing

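No paired analysis was possible because the genotypes share only replicate number 3, and the labels do not tie it to a common animal. No lipogenesis gene passed the threshold for genotype or extraction day under any alternative run. Across all genes, DESeq2 gave 7 genes for genotype, 225 for extraction day and 4 for the interaction, and edgeR without a filter on low counts gave 122 for extraction day, where the main count was 0 each time. With 1 library left out, the count for extraction day ran from 0 to 29 (without control replicate 2). The median day difference of the lipogenesis genes was −0.81 at the lowest, when KO replicate 3 was left out, and 0.20 at the highest, when control replicate 1 was.

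The median genotype difference of the 10 genes, −0.08 in the report, was 0.19 with a term for the index series and 0.31 in the day 2 libraries alone. *Srebf1*, 0.0038 in the report, was at −0.016 with DESeq2, −0.017 with its size factors, −0.024 with library size alone, −0.015 without a filter, −0.0079 with filterByExpr and −0.086 without the day term. With a term for the index series added, 4 of the 10 genes turned: *Fasn* was at 0.73, *Acaca* at 0.19, *Acly* at 0.079 and *Elovl6* at 0.21. Control replicate 3 is the only control in the index series of the KO libraries, so that genotype difference rests on it as the only control. It was the lowest library for *Fasn*, *Acaca* and *Elovl6*. In the day 2 libraries alone 5 turned: *Fasn* was at 0.53, *Acacb* at 0.33, *Acly* at 0.30, *Scd1* at 0.12 and *Elovl6* at 0.0015. With 1 library left out the genotype difference ran from −0.23 to 0.48 for *Srebf1*, −0.52 to 0.55 for *Fasn*, −0.35 to 0.33 for *Acacb*, −0.48 to 0.31 for *Acly*, −0.31 to 0.13 for *Scd1* and −0.22 to 0.013 for *Elovl6*. It kept its sign for *Acaca* (−0.57 to −0.11), *Me1* (0.094 to 0.30), *Thrsp* (0.0017 to 0.95) and *Pnpla3* (0.25 to 1.08). The upper end came without control replicate 1 each time. The edgeR p before adjustment was below 0.05 for *Srebf1* and *Thrsp* without control replicate 1 (0.0220 and 0.0168), without KO replicate 3 (0.0203 and 0.0165) and in the day 2 libraries alone (0.0192 and 0.0160), and for *Acaca* without control replicate 3 (0.0175).

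The day difference of *Acaca* was 0.027 with a term for the index series. With 1 library left out it ran from −1.10 to 0.38 for *Srebf1*, −1.54 to 0.49 for *Fasn*, −0.52 to 0.21 for *Acaca*, −1.12 to 0.21 for *Acacb*, −1.34 to 0.14 for *Acly*, −0.47 to 0.16 for *Scd1*, −1.54 to 0.20 for *Thrsp* and −0.41 to 0.92 for *Pnpla3*. Each lower end came without KO replicate 3 and each upper end without control replicate 1, which leaves 1 library on day 1 that is assumed to vary like the others. The cause of these turns was not tested. Depth limits *Pnpla3* most, at 15 to 68 counts per library.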

Other observations

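Genes outside the lists that are known to respond to insulin, glucose or sterols were read in the same libraries, chosen after values of these data had been seen. *Pklr*, the liver pyruvate kinase, was at 245, 114 and 163 CPM in *Sucnr1* fl/fl replicates 1, 2 and 3 and at 138, 176 and 244 CPM in Hep-*Sucnr1* KO replicates 3, 4 and 5. The first control library was again the highest, with KO replicate 5 close to it. *Hmgcs1* and *Igfbp1* did not share this order, since *Hmgcs1* was highest in KO replicate 5, at 146 CPM, and *Igfbp1*, which insulin represses, in KO replicate 4, at 1493 CPM.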
